A study of Mus musculus with 6 samples.

Results

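The cytotoxic effector genes are the 10 genes Gzma, Gzmb, Gzmk, Prf1, Nkg7, Ctsw, Fasl, Ifng, Tbx21 and Eomes. Each was read from the brightest probe set that named it and no other gene. Every one of the 10 had a single such probe set, so no choice was needed, and no filter on low values was applied. They are 10 of the 22180 genes measured in this way. A further probe set that named Prf1 together with COX2 was left out by that rule.

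RNA was measured in CD4+CD8+ double-positive thymocytes, an immature stage of T-cell development at which both coreceptors are on the surface, from C57BL/6 mice aged 5 to 6 weeks. One group was wild type and the other Ets1-/-, with 3 single-channel Affymetrix arrays each. Ets1 encodes an ETS-family transcription factor that lymphocytes express. Cells were crosslinked with formaldehyde and then captured with magnetic beads, first for CD8 and next for CD4, before RNA was isolated with TRIzol. Per the labels the replicates are litter-mate cohorts; the number of animals behind an array, and how the allele was made, are not stated in the labels. P-values measure the spread between these samples. In bulk RNA, fewer cells of a type and less RNA per cell cannot be told apart.

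Killer lymphocytes, that is cytotoxic CD8 T cells and natural killer cells, destroy target cells with proteins stored in secretory granules. Perforin opens the target membrane, and granzymes, a family of serine proteases, enter and trigger death. Fas ligand kills through the receptor Fas, and interferon gamma signals to neighbouring cells. The T-box factors T-bet and Eomesodermin drive this programme as T cells mature. Double-positive thymocytes precede it and are not killer cells.

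Of the 10 genes, Gzmb and Nkg7 rose in Ets1-/-, by 4.53 ± 0.29 and 3.23 ± 0.28 (SE) on the log2 scale, and the other 8 did not pass the test. Gzmk had a difference of 1.48 ± 0.35 (SE) and missed the threshold. The genes for perforin, Fas ligand, interferon gamma and both T-box factors differed by less than 1 on that scale. None of the 10 was called lower. Calls were made with limma at a Benjamini-Hochberg adjusted p under 0.05 over all genes. So 2 of 10 were called higher and 0 lower, where 1.29% of all genes were called higher, 0.568% lower and 1.86% in either direction. The unadjusted limma p was under 0.05 for 4 of the 10, with Gzmb, Nkg7 and Gzmk higher and Prf1 lower. Over all 22180 genes it was under 0.05 for 2918.

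The deposited log2 values had not been brought to 1 common level. The array medians ran from 4.19 to 4.33 on 5 arrays and were 3.66 on replicate 1 of Ets1-/-. Over all genes the fold changes had a median of -0.22 on the log2 scale, or -0.01 after each array was centred on its median, so both versions are given for the members that rose or whose call or sign differs. Over all genes 287 were called higher and 126 lower; with a pseudocount of 16 added to the linear signal these were 484 and 423. The probe set of Ets1 itself gave 9.20 ± 0.11 and 9.09 ± 0.27 in the 2 groups (SD, n = 3; limma adjusted p = 0.860 for the difference). Whether it lies inside the deleted part of the gene is unknown here, so it is no check of the labels, and directions refer to the arrays as labelled.

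The stretches before the start of 4 members are shown because Gzmb and Nkg7 are the pair that rose, Gzmk came nearest to the threshold and Prf1, the partner of the granzymes, did not pass. They are the 250 bases before the annotated start of Gzmb (chr14:56262335-56262584, minus strand), Nkg7 (chr7:43436888-43437137, plus strand), Gzmk (chr13:113180966-113181215, minus strand) and Prf1 (chr10:61297586-61297835, plus strand), from RefSeq on GRCm38.p6, written 5′ to 3′ on the gene's strand. Capitals mark every match, on either strand, to GGAA (the core that ETS factors bind), TGTGGT (a core of Runx factors) and GGTGTGA (a core of T-box factors).
Gzmb: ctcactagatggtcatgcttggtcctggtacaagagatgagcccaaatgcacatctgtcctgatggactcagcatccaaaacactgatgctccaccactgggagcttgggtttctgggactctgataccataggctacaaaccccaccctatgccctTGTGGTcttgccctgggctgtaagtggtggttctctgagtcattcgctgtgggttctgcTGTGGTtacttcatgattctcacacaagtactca
Nkg7: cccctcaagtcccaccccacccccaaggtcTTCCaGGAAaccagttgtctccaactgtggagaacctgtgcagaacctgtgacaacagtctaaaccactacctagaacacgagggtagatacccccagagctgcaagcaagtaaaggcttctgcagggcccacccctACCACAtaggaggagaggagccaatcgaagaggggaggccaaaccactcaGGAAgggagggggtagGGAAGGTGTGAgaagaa
Gzmk: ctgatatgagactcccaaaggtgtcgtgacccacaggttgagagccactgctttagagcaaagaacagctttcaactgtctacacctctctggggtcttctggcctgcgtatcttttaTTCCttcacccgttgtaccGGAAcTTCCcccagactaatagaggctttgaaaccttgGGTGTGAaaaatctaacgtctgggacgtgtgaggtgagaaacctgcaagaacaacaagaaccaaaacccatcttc
Prf1: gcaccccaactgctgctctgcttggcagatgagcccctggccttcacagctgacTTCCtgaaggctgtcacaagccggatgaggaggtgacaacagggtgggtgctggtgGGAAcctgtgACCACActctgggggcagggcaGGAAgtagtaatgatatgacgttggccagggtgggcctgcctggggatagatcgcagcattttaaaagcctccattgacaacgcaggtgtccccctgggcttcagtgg

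The Gzmb stretch had 0 matches to GGAA and 2 to TGTGGT, which began 93 and 34 bases before the start. The Nkg7 stretch had 4 matches to GGAA, 1 to TGTGGT and 1 to GGTGTGA; the nearest GGAA began 17 bases before the start, with GGTGTGA next to it at 13. Gzmk had 3 matches to GGAA and 1 to GGTGTGA, and Prf1 had 3 to GGAA and 1 to TGTGGT. The table held 9 of the 10 members, the exception being Ctsw. Of the 9, 7 had GGAA, which 93.4% of the 32851 stretches of this length in the table hold; Eomes, like Gzmb, had 0 matches. TGTGGT was in 4 of the 9 and in 14.0% of all stretches, and GGTGTGA in 2 of the 9 and in 3.33% of all. A match is a run of letters and not a measured binding site.

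**Figure D1:**
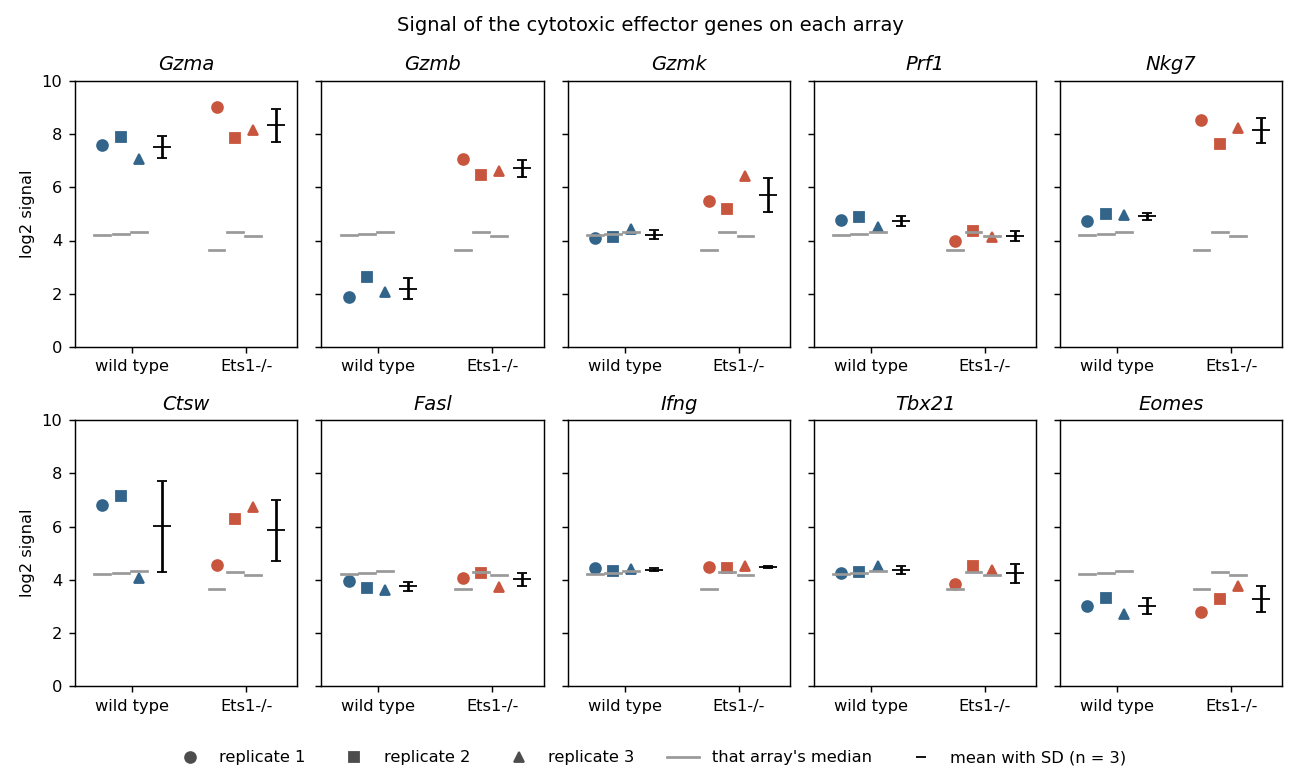
Log2 signal of each of the 10 genes on the 3 wild-type arrays (blue) and 3 Ets1-/- arrays (red), with the group mean and SD in black and each array's own median as a grey line. Gzmb, Nkg7 and Gzmk lie higher on all 3 Ets1-/- arrays than on any wild-type array, Prf1 lies lower, and the groups overlap for the other 6 genes.

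Granzyme B is a protease that cuts after aspartate and activates caspases in the target cell. Gzmb was read at 1.87, 2.64 and 2.05 on wild-type replicates 1 to 3 and at 7.08, 6.46 and 6.62 on Ets1-/- replicates 1 to 3. Its wild-type values lay below the median of their own arrays, by -2.34, -1.60 and -2.28, and its Ets1-/- values above theirs, by 3.42, 2.15 and 2.43. The gap between the highest wild-type and the lowest Ets1-/- value was 3.82. The linear fold was 23.1 (95% interval 14.4 to 37.1; limma adjusted p = 0.000578). After median centring the log2 fold change was 4.74 (limma adjusted p = 0.000731). Because the wild-type signal was low, the size of the rise depends on how dim values are treated. With 16 added to the linear signal it was 2.56 on the log2 scale (limma adjusted p = 0.000146).

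Granzyme A is a tryptase whose gene lies next to that of granzyme K, another tryptase. Gzma was read at 7.59, 7.91 and 7.06 in wild type and at 9.01, 7.84 and 8.14 in Ets1-/-. The groups overlapped, since replicate 2 of Ets1-/- lay under replicate 2 of wild type. The difference was 0.81 ± 0.37 (SE; 95% interval -0.04 to 1.66; limma adjusted p = 0.410). Gzma stood above the array median on 6 of 6 arrays, wild type included.

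Gzmk was read at 4.11, 4.13 and 4.44 in wild type and at 5.50, 5.19 and 6.43 in Ets1-/-. The groups did not overlap, with a gap of 0.75, but the adjusted p was 0.0932 (limma; 95% interval of the difference 0.68 to 2.28). After median centring the difference was 1.69 and passed (limma adjusted p = 0.0420). Gzmk had its highest value on replicate 3 of Ets1-/-, while Gzma, Gzmb and Nkg7 had theirs on replicate 1, the array with the lowest median.

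The other measured granzymes were not called. Gzmc and Gzmf, which RefSeq lists just before Gzmb, had means of 2.49 and 2.11 in wild type and 2.45 and 2.31 in Ets1-/-. Their differences were -0.03 ± 0.26 and 0.19 ± 0.38 (SE; limma adjusted p = 0.962 and 0.839). Gzmd, Gzmg, Gzmn and Gzmm had differences of -0.37, 0.17, -0.61 and -0.06, and none of the 4 passed the test. On the other side of Gzmb, the ion pump gene Atp12a and the testis gene Rnf17 had differences of -0.20 and -0.26 (limma adjusted p = 0.781 and 0.674). Among 9 granzymes measured, 1 was called.

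Perforin forms the pores through which granzymes pass. Prf1 was read at 4.78, 4.87 and 4.52 in wild type and at 3.97, 4.37 and 4.15 in Ets1-/-. All 3 Ets1-/- values were under the lowest wild-type value, by at least 0.15. The difference was -0.56 ± 0.23 (SE; 95% interval -1.10 to -0.02) and did not pass over all genes (limma adjusted p = 0.354). Relative to the median of each array the groups overlapped, with 0.57, 0.62 and 0.19 in wild type and 0.31, 0.06 and -0.04 in Ets1-/-, and the difference after median centring was -0.35. The direction was opposite to that of Gzmb and Nkg7.

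Nkg7 is a membrane protein of cytotoxic granules that takes part in their release. It was read at 4.75, 4.99 and 4.98 in wild type and at 8.53, 7.64 and 8.25 in Ets1-/-. The groups were 2.64 apart at their nearest values. The linear fold was 9.41 (95% interval 5.97 to 14.8; limma adjusted p = 0.00174), and the log2 fold change was 3.45 after median centring and 2.70 with the pseudocount. The genes beside it were not called. Lim2, a lens membrane protein, and Cldnd2 had differences of -0.81 and -0.28, and Etfb, a mitochondrial electron carrier, was at 7.87 and 7.81 (limma adjusted p = 0.250, 0.649 and 0.938).

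Cathepsin W is a protease made mainly by cytotoxic lymphocytes. Ctsw was read at 6.81, 7.17 and 4.06 in wild type and at 4.57, 6.30 and 6.72 in Ets1-/-. One array of each group was low, replicate 3 of wild type and replicate 1 of Ets1-/-, and the groups overlapped. The SD was 1.70 in wild type, against a median SD of 0.18 over the 10 members in that group. The difference was -0.14 ± 0.87 (SE; 95% interval -2.16 to 1.88; limma adjusted p = 0.952). Without wild-type replicate 3 it was -1.12 (adjusted p = 0.665), and without Ets1-/- replicate 1 it was 0.50 (adjusted p = 0.860).

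The secreted and surface effectors showed no called difference. Fasl, the ligand of the death receptor Fas, was read at 3.95, 3.70 and 3.62 in wild type and at 4.06, 4.24 and 3.74 in Ets1-/- (difference 0.25 ± 0.24, SE; limma adjusted p = 0.664). Ifng, the gene of interferon gamma, was read at 4.45, 4.32 and 4.39 in wild type and at 4.49, 4.44 and 4.53 in Ets1-/-. Its difference was 0.10 ± 0.20 (SE; 95% interval -0.37 to 0.58; limma adjusted p = 0.837), and its SD was 0.06 in wild type and 0.05 in Ets1-/-. Fasl lay under the array median on all arrays but replicate 1 of Ets1-/-, and Ifng lay 0.06 to 0.83 above it. The groups overlapped for both genes.

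The T-box factors did not pass the test either. Tbx21, which encodes T-bet, was read at 4.25, 4.30 and 4.53 in wild type and at 3.84, 4.51 and 4.38 in Ets1-/-. Its difference of -0.11 ± 0.26 (SE; 95% interval -0.71 to 0.48; limma adjusted p = 0.859) became 0.10 after median centring, so it has no settled sign. Eomes was read at 3.02, 3.32 and 2.72 in wild type and at 2.80, 3.26 and 3.75 in Ets1-/-, with a difference of 0.25 ± 0.31 (SE; 95% interval -0.47 to 0.97; limma adjusted p = 0.743). Eomes lay under the array median on all 6 arrays. The groups overlapped for both factors.

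**Figure D2:**
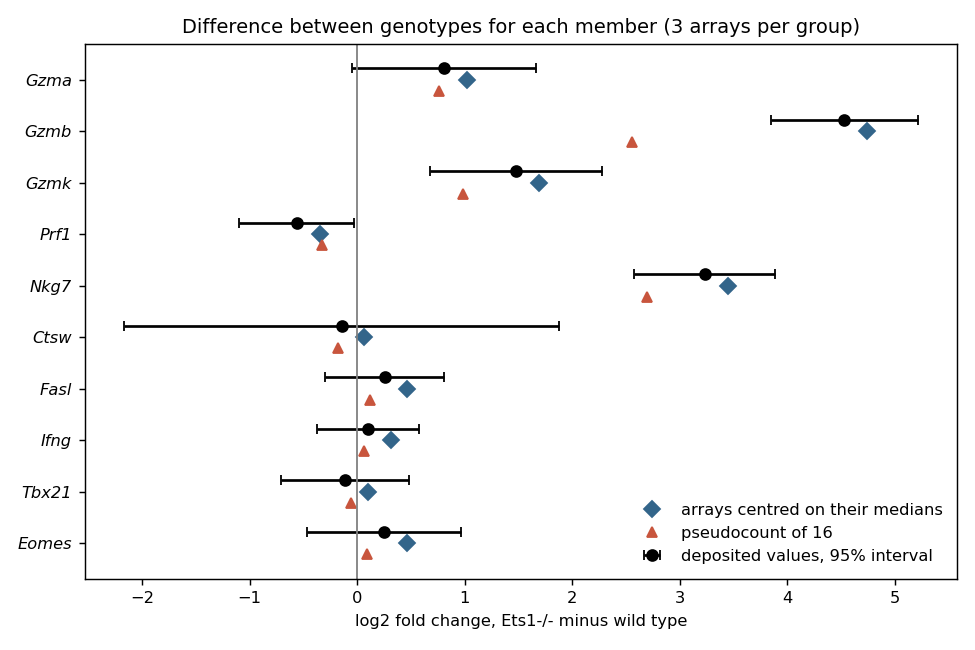
Log2 fold change of each member, Ets1-/- minus wild type, with limma's 95% interval on the deposited values (black), after median centring of the arrays (blue) and with a pseudocount of 16 (red). Gzmb and Nkg7 stand between 2.56 and 4.74 in all 3 versions, and Ctsw has the widest interval, from -2.16 to 1.88.

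Taking the 10 genes as a set, 3 had groups that did not overlap with Ets1-/- higher and 1 with Ets1-/- lower, where 5.76% and 16.1% of all genes did so (21.9% in either direction). The median log2 fold change of the 10 was 0.25, beside -0.22 over all genes, and 9 of the 10 lay above that median. An exact permutation test of each member gave p = 0.1 for Gzmb, Nkg7, Gzmk and Prf1, which is the smallest p that 3 arrays against 3 can give.

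The rest of the killing machinery was examined with 85 measured genes in 9 groups by role. Of these, 9 rose and 1 fell, where 1.29% of all genes were called higher and 0.568% lower. In 22 of the 85 the groups did not overlap with Ets1-/- higher, and in 17 with Ets1-/- lower. The shares over all genes were 5.76% and 16.1%. The 10 called genes were spread over 7 of the 9 roles. The median log2 fold change of the 85 was -0.02.

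Among 12 other granule contents, 2 rose and 0 fell. Ctsc, the protease that activates granzymes by trimming them, was read at 6.81, 6.76 and 6.04 in wild type and 8.17, 8.50 and 8.75 in Ets1-/- (difference 1.94 ± 0.30, SE; limma adjusted p = 0.0192). Cst7, the cystatin that restrains Ctsc and other granule proteases, had a mean of 4.89 in wild type and 6.13 in Ets1-/- (limma adjusted p = 0.0474). Both groups of values stood apart without overlap. The granule proteoglycan Srgn, which holds granzymes in the granule, had a difference of 0.92 and missed the threshold (adjusted p = 0.0927). With 1 array omitted, the call for Ctsc held only without replicate 1 of either group (otherwise adjusted p up to 0.0842). That for Cst7 held only without Ets1-/- replicate 1 (otherwise up to 0.167).

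Genes that move and release granules had no called member out of 9. Rab27a, the small GTPase that docks granules at the membrane, was nearest, at 7.06, 7.40 and 7.07 in wild type and 5.54, 5.76 and 6.22 in Ets1-/- (difference -1.34 ± 0.26, SE; limma adjusted p = 0.0511). Lyst, which controls granule size, had a difference of -0.98 (adjusted p = 0.114), and Vamp7, a fusion protein of late endosomes, one of -0.68. Unc13d, Stx11 and Stxbp2, whose loss disables killing in inherited disease, had differences of -0.05, -0.20 and 0.02. The unadjusted limma p was under 0.05 for 2 of the 9.

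The 4 measured granzyme inhibitors of the serpin family had 0 calls in the limma test, with 1 at an unadjusted p under 0.05. Serpinb6b had a difference of -0.78, Serpinb6a one of 0.28 and Serpinb9, the mouse inhibitor of granzyme B, one of -0.24 (limma adjusted p = 0.275, 0.670 and 0.682). Serpinb9 had means of 4.87 in wild type and 4.62 in Ets1-/-.

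On the death receptor side, 1 of 11 genes fell and 0 rose. Ltb, a membrane cytokine of the tumour necrosis factor family that shapes lymphoid tissue rather than killing cells, fell from 7.65, 7.73 and 8.40 to 4.45, 5.12 and 5.20 (SE of the difference 0.31, limma adjusted p = 0.00338), and its means were 7.92 and 4.92. Fas, the receptor of Fas ligand, was read at 8.30, 8.53 and 8.80 in wild type and 7.10, 7.86 and 7.37 in Ets1-/-. Its difference of -1.10 ± 0.28 (SE) did not pass (adjusted p = 0.118). Cflar, an inhibitor of caspase 8, and the receptor gene Tnfrsf1a had differences of -0.88 and -1.51 (adjusted p = 0.0901 and 0.196).

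Of 9 genes of the interferon-gamma receptor and its targets, 2 rose. The chemokine Cxcl10 was read at 1.57, 1.60 and 2.18 in wild type and 4.10, 4.90 and 4.86 in Ets1-/- (difference 2.84 ± 0.31, SE; limma adjusted p = 0.00406). Cxcl9 had means of 6.02 and 7.99 and was just within the threshold (adjusted p = 0.04997); its call held only without wild-type replicate 1 (otherwise up to 0.162). The receptor chains Ifngr1 and Ifngr2 had differences of -0.32 and -0.42, the transcription factor Irf1 one of 0.56, and Ciita, the regulator of MHC class II genes, one of 0.61. With a pseudocount of 16 the change of Cxcl10 was 1.07.

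Among 11 cytokine receptors and STAT factors that promote killing, Il2ra rose. This high-affinity interleukin-2 receptor chain was read at 5.03, 6.52 and 5.10 in wild type and 8.75, 8.75 and 8.65 in Ets1-/- (difference 3.17 ± 0.40, SE; limma adjusted p = 0.00864). Il2rb, the chain shared by the interleukin-2 and interleukin-15 receptors, was read at 2.95, 4.79 and -0.55 in wild type and 6.53, 6.47 and 6.45 in Ets1-/-. The wild-type values were widely spread, and its difference of 4.08 ± 1.14 (SE) did not pass (adjusted p = 0.159). Stat4, which carries the interleukin-12 signal to Ifng, had a difference of -1.51 ± 0.32 (SE; adjusted p = 0.0697).

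Of 11 transcription factors of cytotoxic cells, 2 rose. Id2, an inhibitor of E proteins used by innate and effector lymphocytes, had means of 5.99 and 7.54 (difference 1.55 ± 0.24, SE; limma adjusted p = 0.0197), and Irf4, a factor of activated lymphocytes, 2.55 and 4.68 (adjusted p = 0.0184). Without single arrays the call for Id2 held only when Ets1-/- replicate 1 was omitted (otherwise up to 0.0869), and that for Irf4 when wild-type replicate 1 or Ets1-/- replicate 1 was (otherwise up to 0.0842). Batf, which pairs with Irf4, had a difference of 1.23 (adjusted p = 0.219). Nfil3 and Bhlhe40 had differences of 1.39 and 1.21 (adjusted p = 0.227 and 0.293). In 6 of the 11 the groups did not overlap with Ets1-/- higher, and in 1 with Ets1-/- lower, where 5.76% and 16.1% of all genes did so. Runx3, a regulator of CD8 lineage and cytotoxic genes, had 0.40 (adjusted p = 0.607). When every probe set was tested on its own, the calls of Id2, Irf4, Ctsc, Cst7 and Cxcl9 were lost (limma adjusted p = 0.0533 to 0.135).

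Among 14 receptors of cytotoxic cells, 1 rose. Slamf7, a self-binding receptor found on natural killer, plasma and dendritic cells, was read at 2.44, 2.38 and 1.62 in wild type and 6.39, 6.17 and 6.82 in Ets1-/- (difference 4.31 ± 0.31, SE; limma adjusted p = 0.000813). With the pseudocount its change was 2.34. Klrd1, the CD94 chain of an inhibitory receptor, and the adhesion receptor Cd226 had differences of 1.24 and 1.80 without passing (adjusted p = 0.0578 and 0.0646). Of the 4 chemokines that killer cells secrete, Ccl5 rose, from 6.86, 6.19 and 6.62 to 10.4, 9.50 and 9.94 (difference 3.41 ± 0.32, SE; adjusted p = 0.00217). Xcl1, which attracts cross-presenting dendritic cells, had 1.42 (adjusted p = 0.0550), and Ccl3 and Ccl4 had 1.44 and -0.06 (0.171 and 0.938).

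**Figure D3:**
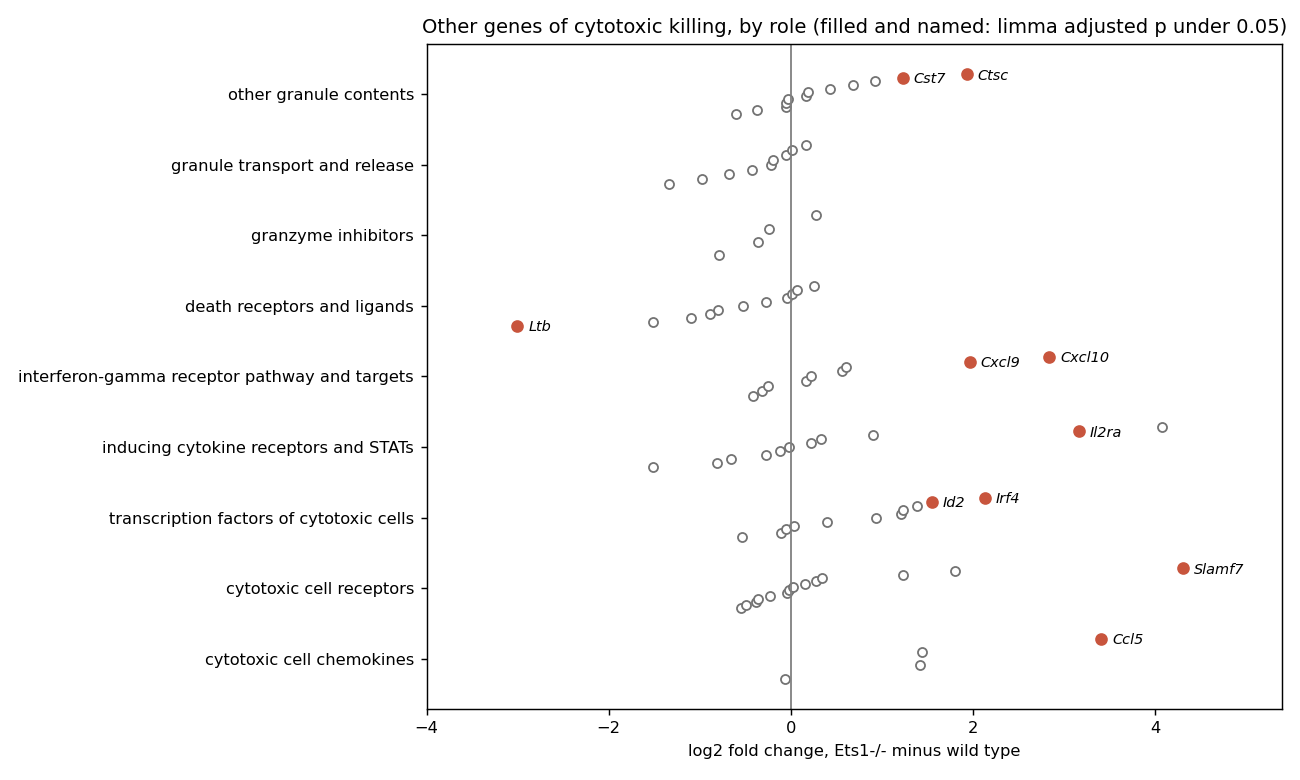
Log2 fold change, Ets1-/- minus wild type, of 85 other genes of cytotoxic killing in 9 roles; each point is 1 gene, and filled named points passed the limma test. Of these 9 lie to the right of 0 and Ltb alone lies to the left; Il2rb at 4.08 is an open point because its wild-type arrays were widely spread.

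Markers of other cells were read alongside, since several of them make these proteins. Over all marker lists 26 of 84 measured genes were called higher and 0 lower. Of all genes tested, 1.29% were called higher and 0.568% lower. Defining genes of the labelled cell type were bright in both groups: Cd4, Cd8a and Cd8b1 had means of 10.9, 11.0 and 11.7 in wild type and 11.1, 10.9 and 11.7 in Ets1-/-, and the summed linear signal of 10 double-positive markers was 14850 to 15196 in wild type and 14119 to 14953 in Ets1-/-. One of the 10, the pre-receptor chain Ptcra, was called higher, by 1.50 (limma adjusted p = 0.0282). With 1 array omitted this call held only without Ets1-/- replicate 1 (otherwise up to 0.116). Dntt, Rag2 and Arpp21 had differences of -0.46, -0.29 and -0.23 and were not called (limma adjusted p = 0.389, 0.581 and 0.658). In 2 of the 10 the groups did not overlap with Ets1-/- higher, and in 4 with Ets1-/- lower. The shares over all genes were 5.76% and 16.1%. The median difference of the 10 was -0.10, beside -0.22 over all genes.

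Of 8 natural killer markers, 1 rose and 0 fell. It was Tyrobp, a signalling adaptor that myeloid cells also make, by 2.68 (limma adjusted p = 0.00811). The summed signal of the 8 was 117 to 237 in wild type and 771 to 847 in Ets1-/-. Tyrobp made up 81.0% to 82.8% of that sum on the Ets1-/- arrays, and without it the sums were 53.5 to 82.3 and 143 to 147. None of the 7 others was called. Among them Klrd1 and Il2rb, whose values are given with the receptors, lay higher on every Ets1-/- array than on any wild-type array, with differences of 1.24 and 4.08 (limma adjusted p = 0.0578 and 0.159). Ncr1, an activating receptor of natural killer cells, was read at 3.25, 3.10 and 4.02 in wild type and 2.68, 3.10 and 2.93 in Ets1-/-, and Klrb1c and Klrk1 had differences of -0.49 and 0.34. In 5 of the 8 the Ets1-/- mean was under 4.13, the median over all probe sets.

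Of 9 genes of mature CD8 and memory T cells, 4 rose and 0 fell: Klf2, S1pr1, Ms4a4b and Cd44, the last an adhesion receptor of memory cells, which went from a mean of 5.52 to 7.66 (limma adjusted p = 0.00353). Ccr7, Cd8b1 and Cxcr3 had differences of -0.07, -0.03 and -0.02. Il7r and Ly6c2 lay higher on every Ets1-/- array than on any wild-type array but were not called (limma adjusted p = 0.0663 and 0.158). Il7r had means of 4.67 in wild type and 6.67 in Ets1-/-. Ly6c2 had means of -1.47 and 7.15, and its wild-type values were widely spread (SD 5.78). The summed signal of the 9 was 3501 to 3566 in wild type and 4210 to 4601 in Ets1-/-, most of it from Cd8b1, which double-positive thymocytes also make. Without Cd8b1 the sums were 222 to 249 and 1074 to 1303. Of 7 NKT-cell markers 0 were called (2 at an unadjusted limma p under 0.05); Cxcr6 and Icos, receptors of activated T cells, had differences of 2.59 and 1.18, and Zbtb16, the factor that defines NKT cells, one of 0.04. Of 7 gamma-delta T-cell markers Maf and Blk rose, by 3.46 and 2.99, with summed signals of 78.1 to 102 and 212 to 395. Without Maf the sums overlapped, at 66.2 to 68.9 and 57.6 to 91.7. Il17a and Ccr6 had differences of 0.66 and 0.20 (limma adjusted p = 0.367 and 0.722). Sox13, Il23r and Cd163l1 had differences of -0.42, -0.45 and -0.50. With a pseudocount of 16 the change of Blk was 0.80 and was not called (limma adjusted p = 0.0852). Single arrays ended both calls: Maf lost it when wild-type replicate 2, or replicate 1 or 3 of Ets1-/-, was omitted (up to 0.101). Blk held only without replicate 2 of wild type or replicate 1 of Ets1-/- (otherwise up to 0.145).

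Among the myeloid and B-cell lists, most calls were for macrophage and B-cell genes. Of 11 macrophage markers 9 rose and 0 fell, among them Csf1r, C1qa, Mpeg1 and C1qb by 3.31, 2.85, 3.05 and 2.32, and their summed signal was 621 to 753 in wild type and 3046 to 4132 in Ets1-/-. Of 9 dendritic-cell markers 4 rose, namely H2-Ab1, Irf8, Itgax and Bst2 by 3.65, 2.51, 3.67 and 1.54. With 1 array omitted the call for Itgax was lost without any 1 of the Ets1-/- arrays (limma adjusted p up to 0.0639). That for Bst2 held only without Ets1-/- replicate 1 (otherwise up to 0.0933). The summed signals of the 9 were 405 to 485 and 1937 to 1985. H2-Ab1 made up 51.8% to 60.8% of the sum on the Ets1-/- arrays. Without it the sums were 343 to 375 and 768 to 943. Siglech and Flt3 had differences of 0.81 and 0.03, and Xcr1, Zbtb46 and Cd209a ones of -1.15, -0.38 and -0.19, none of them called. Of 8 B-cell and plasma-cell markers 5 rose, with summed signals of 99.4 to 121 and 742 to 2455. Among the 3 Ets1-/- arrays, as deposited, the natural killer, gamma-delta, macrophage, dendritic-cell and B-cell sums were each highest on replicate 3. The dendritic-cell sums were close, at 1960, 1937 and 1985 on replicates 1 to 3. The mature CD8 sum, most of it from Cd8b1, was highest on replicate 2. Gzmb and Nkg7 were highest on replicate 1. The medians of these arrays were 3.66, 4.31 and 4.19, so such orders depend on the scaling. They were not computed after centring, and no conclusion is drawn from them. Of 9 mast-cell and basophil markers and 8 neutrophil markers 0 passed the limma test (0 and 1 at an unadjusted p under 0.05), with summed signals of 137 to 148 and 99.8 to 172 for the former and 63.4 to 127 and 62.7 to 83.4 for the latter. No marker could be read as absent, because the table gives no detection call. The part of any of these cells in the rises of Gzmb and Nkg7 was not tested.

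**Figure D4:**
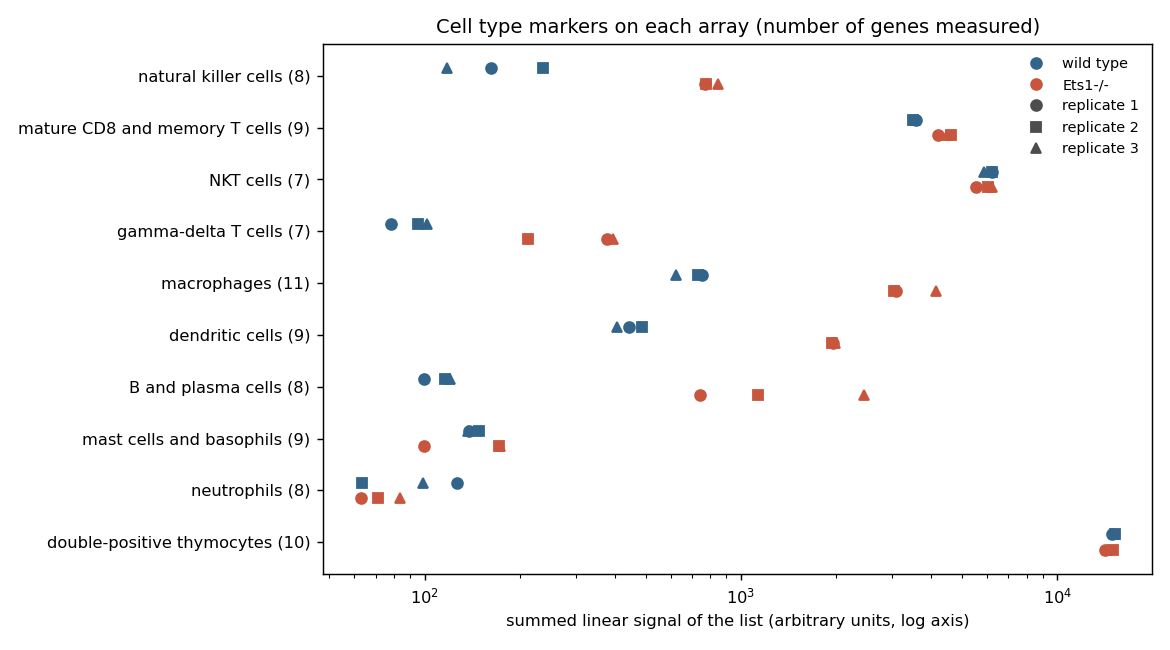
Summed linear signal of each list of cell type markers on the 3 wild-type (blue) and 3 Ets1-/- (red) arrays, on a log axis; symbols give the replicate and the number of genes stands beside each list. The groups are apart for natural killer, mature CD8 and memory, gamma-delta, macrophage, dendritic-cell and B-cell lists, and close together for double-positive thymocytes. Tyrobp carries most of the natural killer sum on the Ets1-/- arrays, Cd8b1 most of the mature CD8 sum, and without Maf the gamma-delta sums overlap. H2-Ab1 carries 51.8% to 60.8% of the dendritic-cell sum on the Ets1-/- arrays, and Jchain 47.0% to 62.2% of the B-cell sum.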

How the data were processed

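The deposited table gives log2 values, 1 column per array, for 41345 probe sets on 6 arrays; that the scale is log2 follows from their range (-15.86 to 16.36). The submitters' processing notes name affy without a version. How the arrays were corrected and normalized, and the build, are not stated. The number of arrays limits the precision. Probe sets were named through the platform annotation (23521 named 1 gene, 1814 several, 16010 none), and 23328 were matched by gene identifier to RefSeq. The brightest probe set stood for each of 22180 genes. Genotypes were compared by a two-sided limma fit (version 3.58.1, R 4.3.3, with eBayes and no covariate), adjusted by Benjamini-Hochberg over all genes, and the fit was tested on simulated data. SE and 95% intervals are limma's. Python 3.11.15, pandas 2.3.3 and matplotlib 3.10.9 made the tables and plots.

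The members and lists were chosen with earlier results of these data known. The text names all members, from each role list the called genes and up to 3 others with the smallest p, up to 4 markers per list, the 2 neighbours on each side of a called member, the 5 genes most like each and Ets1. Further genes of the same lists (Klrb1c, Klrk1, Zbtb16, Ccr7, Cxcr3, Il23r, Cd163l1, Xcr1, Zbtb46, Cd209a, Runx3, Ccl4, Unc13d, Stx11, Stxbp2, Ifngr1, Ifngr2, Cd4, Cd8a, Cd8b1 and the remaining granzymes) were added as definers of their list, after their values were seen. Ccr6, Il7r, Ly6c2, Siglech and Flt3 were also added, after their values were seen, to give uncalled genes of both directions. The markers Lyz2, C1qc, Cd68, Mertk, Vsig4 and Ebf1 were likewise added, to give calls that single arrays ended and uncalled genes. Alternatives changed the probe-set choice, the features tested, a filter, the scaling, a pseudocount, the variance model, array weights, a replicate block and each array.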

Additional observations from a re-analysis of the deposited data

How the results depend on the processing

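Gzmb and Nkg7 were called higher in every alternative fit, each of the 6 that left out 1 array included, and no member was called lower in any. Omitting 1 array gave log2 fold changes of 4.35 to 4.76 for Gzmb and 3.04 to 3.49 for Nkg7. Gzmk was called as well with quantile normalization, median centring, array weights, an intensity trend with a robust prior, and among genes above the median signal, a filter that removed Fasl and Eomes. Of the 10 members, 8 kept their direction throughout. Ctsw turned to 0.057 with quantile normalization, 0.068 with median centring and 0.0083 with array weights, and ran from -1.12 to 0.50 with 1 array omitted. Tbx21 turned to 0.084, 0.097 and 0.078 in the same 3 fits and to 0.053 with centring and a pseudocount, and ran from -0.25 to 0.087 with 1 array omitted. The causes were not tested.

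Over all genes the numbers higher and lower were 513 and 285 with quantile normalization, 545 and 200 with median centring, 484 and 423 with a pseudocount of 16, 663 and 330 with both of the latter, 618 and 554 with trend and robust prior, and 625 and 394 with array weights. The number lower was 264 among the 11631 genes above the median signal. With every probe set tested on its own, 77 of 41345 probe sets were lower, a count of probe sets and not of genes. With 1 array omitted, 145 to 276 were higher and 38 to 103 lower. Of the 85 other killing genes, those higher and lower were 12 and 5 with quantile normalization, 12 and 3 with centring, 15 and 6 with the pseudocount, 16 and 5 with both, 17 and 8 with trend and robust prior, 14 and 5 with array weights, and 10 and 5 above the median signal. The number higher was 4 with every probe set tested, and 4 to 8 with 1 array omitted. Of the cell type markers 1 was lower with trend and robust prior. A replicate block left 62 genes lower over all and 5 killing genes higher and changed no member's call. Under it Ctsc, Cst7, Id2 and Irf4 lost their calls (adjusted p = 0.053 to 0.128), as did the markers Ptcra, Bst2 and Ebf1 (0.0543 to 0.0871). The labels call the replicates litter-mate cohorts without saying that a number marks 1 litter, and deviations of same-numbered arrays correlated at -0.07, -0.01 and -0.05 over genes, so the block was not used as a pairing. Every probe set tested on its own ended the calls of 7 markers (Blk, Maf, Bst2, C1qc, Ebf1, Itgax and Ptcra; 0.0562 to 0.125), and the pseudocount that of Ebf1 (0.0647) beside Blk.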

Other observations

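The genes whose pattern over the 6 arrays was most like that of a called member were found by the root mean square difference of log2 values, each gene centred on its own mean. For Gzmb these were S100a6, Penk, Fam71b, Samhd1 and Nt5e, with differences of 0.26, 0.28, 0.36, 0.39 and 0.40 from its pattern. S100a6, a calcium-binding protein, went from a mean of 5.44 in wild type to 9.83 in Ets1-/-, and Penk, the precursor of enkephalin peptides, from 2.53 to 7.15 (limma adjusted p = 0.00198 and 0.000336). Nt5e, the surface enzyme CD73 that makes adenosine, went from 2.08 to 7.11 (adjusted p = 0.000224). For Nkg7 they were Cd86, Plbd1, Plac8, H2-Aa and Ccl5, with differences of 0.12, 0.24, 0.24, 0.24 and 0.29. Cd86, a costimulatory ligand of antigen-presenting cells, went from 3.91 to 6.95, and H2-Aa, a chain of MHC class II, from 6.64 to 10.1 (adjusted p = 0.00197 and 0.000527). Likeness over 6 arrays in 2 groups rests mainly on the difference between the groups.

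The probe set that names Prf1 together with the mitochondrial gene COX2 was read at 11.3, 11.3 and 11.3 in wild type and 11.4, 11.4 and 11.2 in Ets1-/- (difference 0.01; limma adjusted p = 0.986 when every probe set was tested on its own).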
